A study of Mus musculus with 22 samples.

Results

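The effect of a PRDM16 virus on brown fat was measured across both genotypes of a CPEB2 knockout experiment. The comparison took 12 of the 22 libraries of the series, 6 from mice given AAV-PRDM16 and 6 from mice given AAV-GFP, and used all genes. Libraries were taken by the virus named in their sample labels. Each virus group held 3 CPEB2-WT and 3 CPEB2-KO mice, which gave the groups WT + AAV-GFP (mice 56, 65 and 89), WT + AAV-PRDM16 (63, 64 and 80), KO + AAV-GFP (57, 64 and 69) and KO + AAV-PRDM16 (59, 65 and 76). Mouse numbers repeat between groups and there denote different libraries.

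All 12 mice were males kept on a chow diet with 9% fat. The KO carries a global deletion of Cpeb2, a gene for a protein that binds RNA and controls its translation. At 16 weeks of age each mouse received 20000000000 vector genomes of adeno-associated virus of serotype 2/8 in 30 µl PBS, placed at 10 µl per site into the interscapular brown adipose tissue (BAT). BAT was taken 9 weeks later, at 25 weeks of age. One virus made PRDM16 with a 3×flag tag and the other made green fluorescent protein (GFP), a protein foreign to the mouse. The forward cloning primer in the methods of the study matches the Prdm16 reading frame from an internal ATG at codon 220 of 1275, so that 219 codons, among them those of the PR domain, lie before it and 1056 follow. The sources used here name no promoter that would restrict the virus to adipocytes. Every mouse in this table was injected, so a rise with AAV-GFP and a fall with AAV-PRDM16 cannot be told apart from these libraries. The untreated cohort of 5 WT and 5 KO mice of 21 to 25 weeks was counted in another table, and its levels are set beside those of the virus groups without a test. The study describes withholding food from those mice for some hours before BAT was taken, and no such step for the virus cohort. Differences between the cohorts therefore cannot be put down to the virus alone.

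PRDM16 is a zinc finger transcription regulator that holds brown adipocytes in their fate. It works with PPARG, CEBPB and other partners to switch on thermogenic genes such as Ucp1, the uncoupling protein that lets mitochondria burn fuel as heat, and it is also known to hold down interferon-responsive genes in fat. Interferon-gamma, which T cells and natural killer cells release, switches on IRF1, and IRF1 in turn switches on genes for guanylate-binding proteins (GBP), immunity-related GTPases (IRG), antigen presentation and chemokines that draw T cells.

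The sequence elements of this pathway are shown because Irf1 is among the few genes that passed the adjusted threshold and the GBP and IRG genes were lower as a group. Interferon-gamma acts on promoters through the gamma-activated sequence (GAS), written here as TTCNNNGAA, and IRF proteins bind repeats written here as GAAANNGAAA. Both were searched on both strands of RefSeq promoter windows of 300 bases (GRCm38.p6, 250 bases before to 50 after the start of transcription), which matched 12083 of the tested gene symbols. The 250 bases before the start of Irf1 lie at chr11:53769764-53770013 on the plus strand, and the capitals mark its GAS match, 90 to 82 bases before the start. A further Irf1 window, at a later start, held neither motif and is not shown.

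Irf1 promoter: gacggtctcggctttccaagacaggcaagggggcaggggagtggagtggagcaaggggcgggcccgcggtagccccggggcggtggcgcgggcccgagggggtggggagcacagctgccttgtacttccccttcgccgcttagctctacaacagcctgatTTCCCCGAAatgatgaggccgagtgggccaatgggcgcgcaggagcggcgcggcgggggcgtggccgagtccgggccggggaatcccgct

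IRF matches stood close to the start of several GBP and IRG genes, and 3 of them are shown with 10 bases on either side and the match in capitals. That of Gbp2 lay at chr3:142620594-142620623 on the plus strand, that of Gbp7 at chr3:142530273-142530302 on the plus strand and that of Irgm2 at chr11:58214903-58214932 on the plus strand. In Gbp2 and Gbp7 the repeat reads on the opposite strand.

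Gbp2 site: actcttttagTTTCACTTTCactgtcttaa

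Gbp7 site: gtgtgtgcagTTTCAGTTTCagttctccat

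Irgm2 site: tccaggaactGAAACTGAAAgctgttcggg

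The IRF letters stood in 11 of the 13 GBP and IRG genes with a window (84.6%) and in 24 of 50 interferon-stimulated genes (48.0%), against 478 of all 12083 genes (3.96%). Other lists with many lower genes had smaller shares. They were 4 of 18 MHC class I (22.2%), 6 of 31 interferon signalling (19.4%) and 3 of 22 macrophage genes (13.6%). Chemokine genes had 2 of 18 (11.1%), cytotoxic genes 2 of 20 (10.0%), MHC class II genes 1 of 11 (9.09%) and T cell genes 0 of 12. Apart from T cell genes, each share lay above that of all genes, though on small counts. Of the genes lower with AAV-PRDM16 at a false discovery rate (FDR) of 0.1, 28 of 217 held them (12.9%). The GAS letters stood in 6 of the 13 GBP and IRG genes (46.2%), in 31 of the 217 (14.3%) and in 1003 of all 12083 genes (8.3%). A gene with several windows was counted if any of them held a match. The 2 motifs may overlap, and a match describes the letters only.

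Levels are CPM, counts scaled to library size after TMM adjustment of the totals for composition. The log2 fold change (log2FC) is AAV-PRDM16 relative to AAV-GFP, averaged over the 2 genotypes in a model with 4 groups, with its standard error (SE). Tests are edgeR's quasi-likelihood test over 18899 genes with Benjamini-Hochberg adjustment (FDR). Library totals ran from 74420956 to 143005309 counts with AAV-GFP and from 61636889 to 110754370 with AAV-PRDM16, and mitochondrial genes took 29.6% to 33.6% and 30.2% to 36.9% of them. The tissue label held in every library: Ucp1 lay between 1184 and 3531 CPM, and the mean of 30 brown fat genes between 6.41 and 6.93 on the log2 CPM scale. Skeletal muscle genes were scarce, with means from −2.74 to −1.34 in 10 libraries, but stood higher in mouse 57 of KO + AAV-GFP (1.85) and mouse 64 of WT + AAV-PRDM16 (0.38), on that same scale.

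Prdm16 counts were higher in every mouse given AAV-PRDM16 than in any given AAV-GFP. The gene Prdm16 (chr4:154316125-154636873, minus strand) stood at 23.9, 40.2 and 35.8 CPM in WT + AAV-GFP and at 31.7, 34.5 and 31.7 CPM in KO + AAV-GFP. It stood at 121.9, 118.9 and 45.9 CPM in WT + AAV-PRDM16 and at 69.2, 127.8 and 73.6 CPM in KO + AAV-PRDM16. The virus groups did not overlap, although mouse 80, at 45.9 CPM, was close to the highest AAV-GFP library, at 40.2 CPM. The log2FC was 1.49 (SE 0.24, edgeR FDR = 0.0527), with 1.52 in WT and 1.47 in KO, and an exact permutation of the mice within genotype gave p = 0.005, two-sided, the smallest it allows. Reads of the virus and of the mouse gene cannot be told apart in these counts. Cpeb2 checked the genotype: it stood at 10.5 to 13.96 CPM in WT and 4.33 to 5.55 CPM in KO (log2FC of KO relative to WT −1.26, edgeR FDR = 0.000449) and its log2FC between viruses was small (−0.11, SE 0.10, edgeR FDR = 0.894).

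Genes of the immune system were lower with AAV-PRDM16, in both genotypes. At an unadjusted p under 0.05, 1326 genes were lower (7.02% of those tested) and 391 higher (2.07%). These shares are the background to every list count given below at that p. Of the 1326, 1286 were lower in each genotype, against 5540 of all 18899 genes. Genes picked on the average of both genotypes tend to be lower in each, so this count is no separate support. Of the same 1326, 14.5% belonged to immune lists (against 1.61% of all genes tested) and 144 were antigen receptor gene segments. Most stood at low levels, with a median of 0.896 CPM against 4.66 CPM for all genes. The median log2FC of all genes was −0.0067.

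Few single genes passed the adjusted threshold, and the count depended on which mice were in the fit. At an FDR of 0.05, 7 genes were lower (0.037%) and 0 higher (0%, against 391 higher at an unadjusted p under 0.05). The next FDR above 0.05 was 0.0527, at or below which stood 75 genes, 74 of them lower. DESeq2 called 561 lower and 41 higher, and limma-voom with sample quality weights 8 and 0. The edgeR count of lower genes became 349 when WT + AAV-GFP mouse 56 was left out, and without KO + AAV-GFP mouse 57 the total in either direction was 211 genes, 7 of them higher. Leaving out any of the other 10 libraries left 0 or 1 lower gene. At an FDR of 0.1, 345 genes were lower (1.83%) and 9 higher (0.0476%). Being lower in each genotype, as 344 of the 345 were, is again favoured by picking genes on the average. Of the 345, 91 were in the immune lists (26.4%) and 59 were antigen receptor segments. All 6 AAV-PRDM16 libraries lay below all 6 AAV-GFP libraries for 92 genes (0.487%) and above them for 14 (0.0741%). Nothing in the labels says that mice came from separate litters, so p-values measure the spread between these mice.

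**Figure D1:**
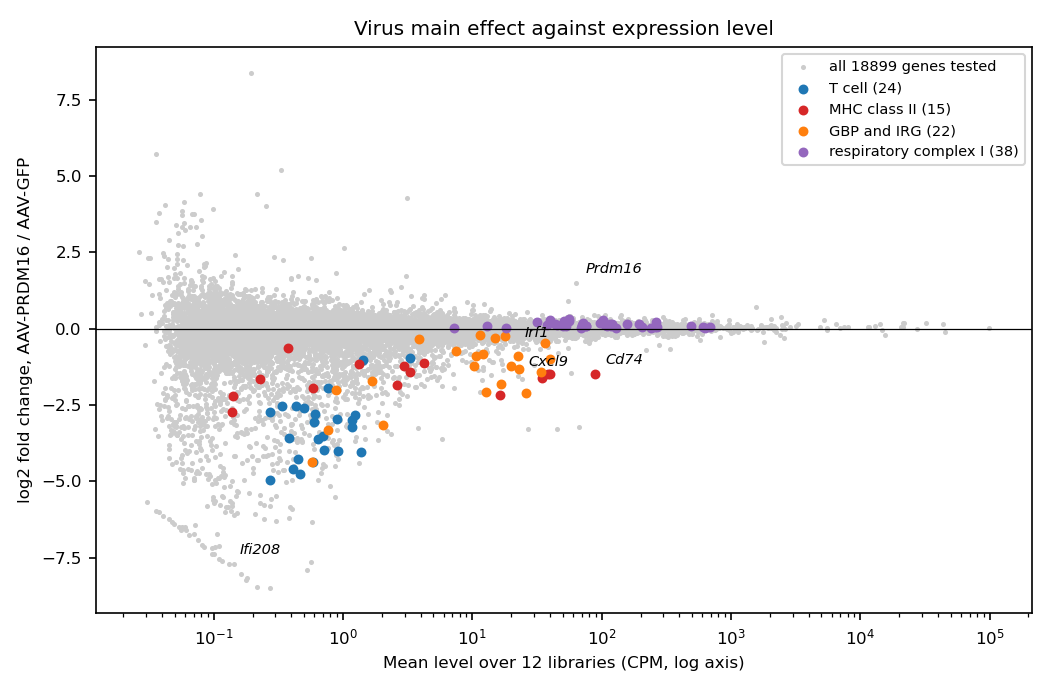
The log2FC of AAV-PRDM16 relative to AAV-GFP (vertical axis) is plotted against the mean level over 12 libraries (horizontal axis, CPM on a log scale) for 18899 genes in grey, with the T cell (24 genes), MHC class II (15), GBP and IRG (22) and respiratory complex I (38) lists in colour. Members of the first 3 lists all lie below 0, T cell genes farthest, while complex I genes lie at or just above 0.

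Irf1, the transcription factor that carries the interferon-gamma signal on, was lower with AAV-PRDM16 than with AAV-GFP. The gene (chr11:53770014-53778374, plus strand) stood at 28.6, 24.0 and 27.9 CPM in WT + AAV-GFP and 21.96, 22.2 and 27.7 CPM in KO + AAV-GFP, against 15.5, 15.3 and 14.9 CPM in WT + AAV-PRDM16 and 19.2, 18.8 and 16.1 CPM in KO + AAV-PRDM16. No treated library reached an AAV-GFP library. The log2FC was −0.61 (SE 0.08, edgeR FDR = 0.0453), with −0.82 in WT and −0.41 in KO; the interaction of genotype and virus had an unadjusted p of 0.0301 and an edgeR FDR of 0.9998. Its level in untreated BAT, 12.8 to 63.8 CPM in WT and 24.8 to 63.3 CPM in KO, spanned both virus groups.

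Cxcl9, a chemokine induced by interferon-gamma that attracts activated T cells, was lower as well. It stood at 16.4, 48.0 and 33.2 CPM in WT + AAV-GFP and 35.2, 20.1 and 50.2 CPM in KO + AAV-GFP. With AAV-PRDM16 it stood at 9.21, 11.01 and 13.2 CPM in WT and 11.2, 12.2 and 12.5 CPM in KO. The groups did not overlap, and the spread among AAV-PRDM16 libraries was far narrower than that among AAV-GFP libraries (log2FC −1.55, SE 0.25, edgeR FDR = 0.0527). Untreated BAT held 6.42 to 20.5 CPM in WT and 8.81 to 17.7 CPM in KO. Among 26 chemokine genes, 9 were lower at p under 0.05 and 0 higher (background 7.02% and 2.07%), with a median log2FC of −0.83, which ran from −1.47 (without WT + AAV-PRDM16 mouse 80) to −0.52 (without KO + AAV-GFP mouse 69) when 1 library was left out.

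**Figure D2:**
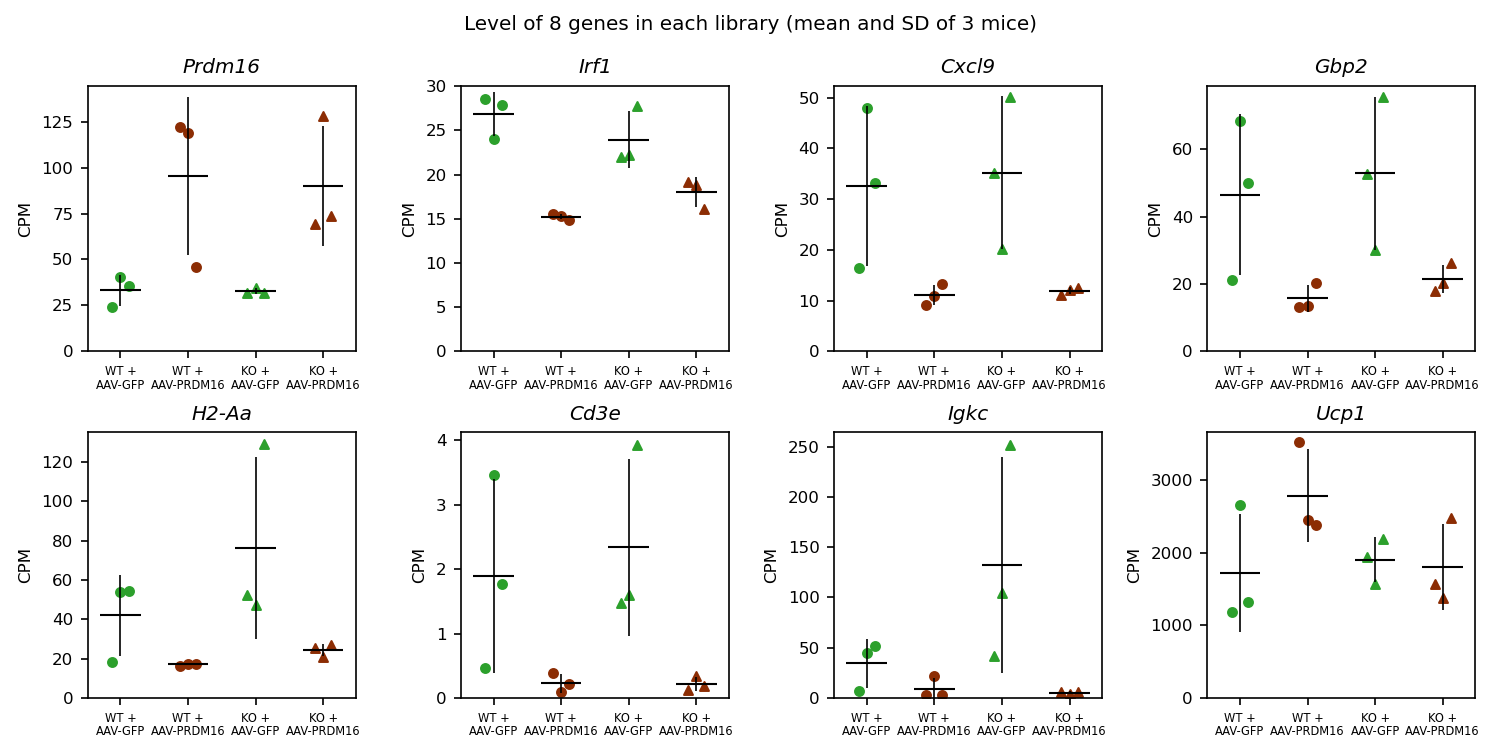
Each panel plots 1 gene by group, with CPM on the vertical axis (starting at 0), a point per mouse (circles WT, triangles KO), and the mean and SD of 3 mice as lines. Prdm16 is higher and Irf1, Cxcl9 and Cd3e are lower in all 6 AAV-PRDM16 libraries than in all 6 AAV-GFP libraries, and mouse 69 of KO + AAV-GFP is the highest library for Cxcl9, Gbp2, H2-Aa, Cd3e and Igkc.

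The GBP and IRG genes, GTPases that attack intracellular pathogens and among the strongest responders to interferon-gamma, were lower throughout. All 22 tested were lower in each genotype, against 5540 of all 18899 genes. Of the 22, 18 were lower at p under 0.05 (7.02% of all genes), 9 at an FDR under 0.1 (1.83% of all genes), and 0 were higher. The median log2FC was −1.24 against −0.0067 for all genes. Gbp2 (chr3:142620602-142638008, plus strand) lay between 21.2 and 75.6 CPM with AAV-GFP, median 51.4, and between 13.3 and 26.3 CPM with AAV-PRDM16, median 19.1. Its groups overlapped only through mouse 56 of WT + AAV-GFP, the 21.2 CPM library (log2FC −1.43, SE 0.28, edgeR FDR = 0.0543). Iigp1 was lower by a larger step, from a median of 31.7 CPM (11.4 to 90.1) to 9.93 CPM (5.78 to 13.1), with a log2FC of −2.13 (SE 0.44, edgeR FDR = 0.0586). Gbp7 had a log2FC of −0.90, Gbp6 of −0.996 and Irgm2 of −1.32 (edgeR FDR 0.108 to 0.14), and Gvin1, a very large GTPase that interferon induces, of −0.47 (edgeR FDR = 0.258). Immune cell markers moved with this list (T cell markers summed to 7.15 to 71.6 CPM with AAV-GFP and 4.77 to 8.49 CPM with AAV-PRDM16), and their part in it was not tested. Reads may be split between these near-identical paralogs, since the counting tool is not given in the sources used here.

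The broader list of 65 interferon-stimulated genes moved less. Of these, 59 were lower in each genotype, against 5540 of all 18899 genes. The median log2FC was −0.43, and 28 were lower at p under 0.05 and 0 higher (7.02% and 2.07% of all genes). Leaving out 1 library brought this count to 13 (KO + AAV-GFP mouse 69), 17 (WT + AAV-GFP mouse 65), 18 (WT + AAV-GFP mouse 89), 16 (KO + AAV-PRDM16 mouse 59) or 17 (KO + AAV-PRDM16 mouse 65), and GC and length offsets to 16. In the signalling list, 16 of 35 genes were lower, or 10 without mouse 69, or 8 with a replicate block and GC and length offsets. Stat3, which cytokines of the interleukin-6 family activate, did not overlap, at 50.001 to 60.7 CPM against 41.6 to 49.8 CPM, but its step was small (log2FC −0.22, SE 0.08, edgeR FDR = 0.30). The genes for the receptor side, Ifngr1, Ifnar2 and the kinase Jak1, had log2FC between −0.03 and 0.08.

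Antigen presentation genes were lower in both classes. MHC class II molecules present peptides to CD4 T cells and are made mainly by macrophages, dendritic cells and B cells. All 15 genes of that list were lower in each genotype, against 5540 of all 18899 genes. Of the 15, 13 were lower at p under 0.05 and 9 at an FDR under 0.1 (median log2FC −1.49). H2-Aa, the alpha chain of I-A, lay between 18.4 and 129 CPM with AAV-GFP (median 52.9) and between 16.4 and 26.8 CPM with AAV-PRDM16 (median 19.1; log2FC −1.48, SE 0.29, edgeR FDR = 0.0543). Cd74, the invariant chain that loads these molecules, gave a like result, at 44.6 to 301 CPM (median 112) against 35.2 to 59.3 CPM (median 43.4), with a log2FC of −1.49 (SE 0.30, edgeR FDR = 0.0543). In both genes mouse 56 of WT + AAV-GFP sat among the AAV-PRDM16 libraries and the other 5 AAV-GFP libraries sat above all of them. In untreated BAT H2-Aa stood at 12.5 to 73.6 CPM in WT and 24.7 to 74.1 CPM in KO, which overlapped both virus groups but did not reach mouse 69 of KO + AAV-GFP. H2-Eb1 and H2-Ab1 had log2FC of −1.48 and −1.63 (edgeR FDR 0.0527 and 0.0543).

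MHC class I molecules, which most cells carry to show peptides to CD8 T cells, moved by smaller steps at higher levels. Of 21 genes for these molecules and their loading machinery, 18 were lower at p under 0.05 and 0 higher (7.02% and 2.07% of all genes). Their median log2FC was −0.64. H2-D1 lay between 265 and 665 CPM with AAV-GFP (median 372) and between 196 and 303 CPM with AAV-PRDM16 (median 266; log2FC −0.66, SE 0.16, edgeR FDR = 0.0928). H2-K1 had a log2FC of −0.71 and B2m, the light chain, of −0.54 (edgeR FDR 0.125 and 0.30). The chaperones of general protein folding in this list had log2FC near 0, namely Canx (0.04), Calr (−0.03) and Pdia3 (−0.05). H2-M2, a class I gene of low abundance, held 847 counts over the 6 AAV-GFP libraries and 5 over the 6 AAV-PRDM16 libraries, all in mouse 76. The groups did not overlap (edgeR FDR = 0.0527), but H2-M2 passed the filter on low counts through AAV-GFP libraries alone.

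T cell genes were lower throughout and by large steps. Of 24 T cell markers, all were lower at p under 0.05 and in each genotype (against 5540 of all 18899 genes). Of the 24, 18 were lower at an FDR under 0.1 (1.83% of all genes) and 5 did not overlap between the viruses (0.487% of all genes). The markers had a median log2FC of −3.15 (−3.07 in WT, −3.23 in KO). Scarce markers could pass the filter on low counts through AAV-GFP libraries alone, so the shares called are a description only. Cd3e, a chain of the T cell receptor complex, stood at 0.457, 3.46 and 1.77 CPM in WT + AAV-GFP and 1.47, 1.61 and 3.93 CPM in KO + AAV-GFP, against 0.386, 0.0885 and 0.212 CPM in WT + AAV-PRDM16 and 0.119, 0.342 and 0.184 CPM in KO + AAV-PRDM16. Every AAV-PRDM16 library was lower, though mouse 56 of WT + AAV-GFP exceeded the highest of them, mouse 63, by little (log2FC −3.24, SE 0.53, edgeR FDR = 0.0527). Untreated BAT held 0.116 to 0.571 CPM in WT and 0.389 to 0.631 CPM in KO, which is below 5 of the 6 AAV-GFP libraries.

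Markers of both main T cell classes were lower. Cd8a, of cytotoxic T cells, lay between 0.188 and 6.58 CPM with AAV-GFP (median 1.88) and between 0.0496 and 0.211 CPM with AAV-PRDM16 (median 0.175; log2FC −4.05, SE 0.65, edgeR FDR = 0.0527). Cd4, of helper T cells, had medians of 1.82 and 0.289 CPM (log2FC −2.82, SE 0.76, edgeR FDR = 0.125). Lck, the kinase that the T cell receptor uses, had a log2FC of −3.00 and Thy1, which fibroblasts and nerves also make, of −0.98. Gimap3, Ms4a4b, Sh2d2a and Rac2, genes of lymphocytes or of blood cells in general, did not overlap between the viruses and had log2FC of −3.37, −3.06, −4.44 and −2.29 (each at an edgeR FDR of 0.0527). All 8 T cell receptor segments tested were lower at p under 0.05, with a median log2FC of −5.76. The count filter asked for enough counts in any 3 libraries. A segment nearly absent with AAV-PRDM16 could therefore be tested through AAV-GFP libraries alone, and the share called is a description only.

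Genes of cytotoxic and natural killer cells followed. Of 26 tested, 24 were lower at p under 0.05, 0 were higher and all 26 were lower in each genotype (against 5540 of all 18899 genes). The list had a median log2FC of −3.59, and 2 of its members held 0 counts in all 6 AAV-PRDM16 libraries. Scarce members could pass the count filter through AAV-GFP libraries alone, so the share called is a description only. Ccl5, a chemokine of activated T cells, had medians of 1.08 CPM (0.188 to 4.44) and 0.083 CPM (0.0774 to 0.234), and Nkg7, a granule protein, of 1.39 and 0.0738 CPM. Their log2FC were −3.65 and −3.90 (edgeR FDR 0.0544 and 0.076). In bulk tissue, fewer cells of a type and less RNA per cell cannot be told apart, here and for every list that follows.

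Plasma cell genes were also lower, with a wide spread among mice. Of 161 immunoglobulin segments tested, 136 were lower at p under 0.05, 54 at an FDR under 0.1 and 0 higher, with a median log2FC of −3.40. Igkc, the kappa constant region, stood at 6.91, 44.7 and 51.7 CPM in WT + AAV-GFP and 41.5, 104 and 251 CPM in KO + AAV-GFP, against 2.44, 21.9 and 2.52 CPM in WT + AAV-PRDM16 and 5.64, 4.01 and 6.35 CPM in KO + AAV-PRDM16. Mouse 64 of WT + AAV-PRDM16 stood apart from its group, above mouse 56 of WT + AAV-GFP (log2FC −3.29, SE 0.68, edgeR FDR = 0.0586). Jchain, which joins secreted antibodies, had medians of 24.7 and 2.73 CPM (log2FC −3.30, SE 0.63, edgeR FDR = 0.0527), with −1.79 in WT and −4.82 in KO and an unadjusted interaction p of 0.0255. Of 23 B and plasma cell genes, 14 were lower and 0 higher at p under 0.05, with a median log2FC of −1.45, and Igha, the constant region of mucosal antibodies, had a log2FC of −3.23 against −1.16 for Ighm (edgeR FDR 0.0706 and 0.271). Segments share sequence, so counts of single segments are uncertain. Scarce segments could also pass the count filter through AAV-GFP libraries alone, so the share called is a description only.

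**Figure D3:**
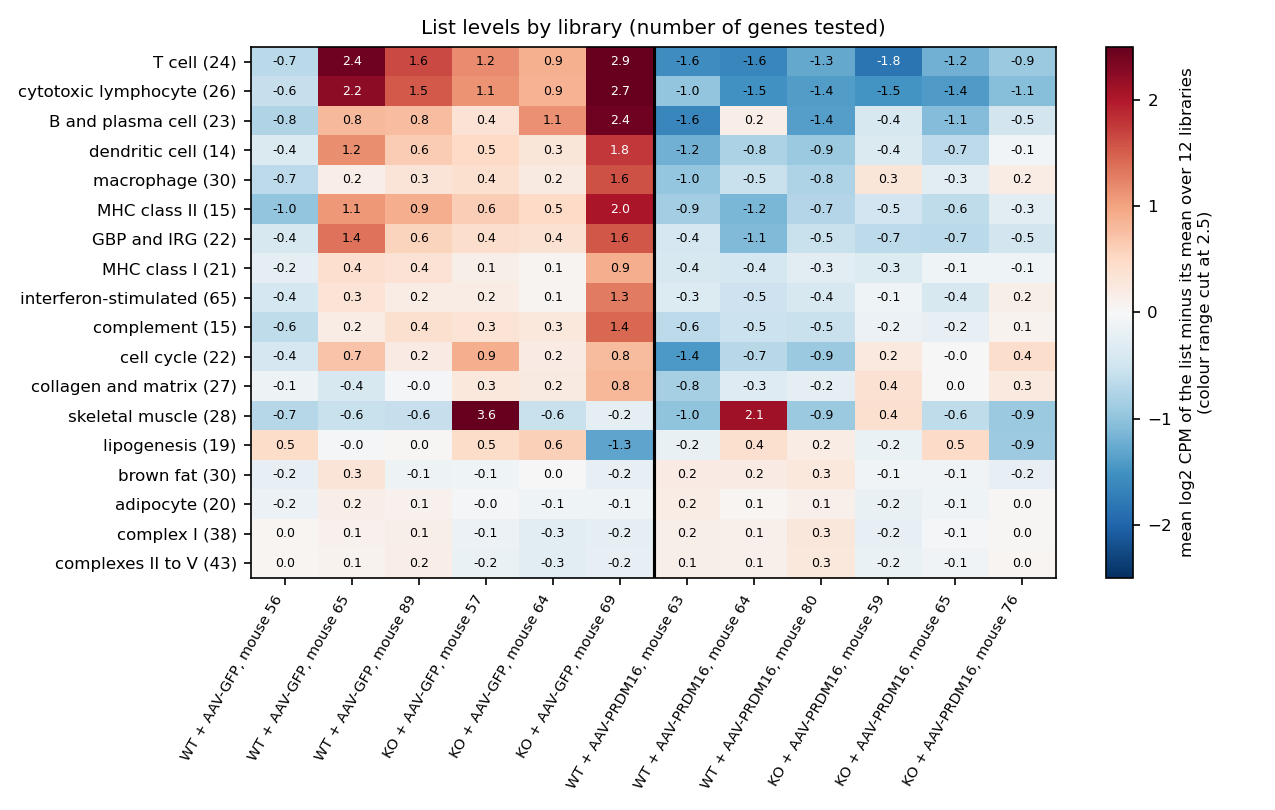
The heat map shows, for each list (vertical axis, number of genes tested in brackets) and library (horizontal axis, by group and mouse), the mean log2 CPM of the list minus its mean over the 12 libraries. Immune lists are lower in the AAV-PRDM16 libraries, mouse 56 of WT + AAV-GFP is the lowest and mouse 69 of KO + AAV-GFP the highest of the AAV-GFP libraries for T cell genes, and muscle genes stand out in mouse 57 of KO + AAV-GFP and mouse 64 of WT + AAV-PRDM16.

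Myeloid genes were lower by smaller steps. Of 30 macrophage genes, 16 were lower at p under 0.05 and 0 higher (15 and 1 with limma-voom), with a median log2FC of −0.81. In each genotype 22 of the 30 were lower, against 5540 of all 18899 genes. The log2FC of single members ran from −2.22 to 1.71. It was above 0 for 4 of them, and 0 were lower without overlap. Lyz2, lysozyme of macrophages, lay between 25.8 and 190 CPM with AAV-GFP (median 72.4) and between 18.4 and 43.5 CPM with AAV-PRDM16 (median 26.7; log2FC −1.47, SE 0.27, edgeR FDR = 0.0527). Mpeg1, a pore-forming protein of phagocytes, had medians of 29.6 and 9.87 CPM (log2FC −1.66, edgeR FDR = 0.0543). The neighbouring paralog Lyz1 had medians of 3.22 CPM (0.529 to 6.33) with AAV-GFP and 0.522 CPM (0.144 to 1.24) with AAV-PRDM16. Its log2FC was −2.75 (SE 0.40, edgeR FDR = 0.0453), and reads may be shared between Lyz1 and Lyz2. Of 14 dendritic cell genes, 11 were lower, among them Itgax, the integrin CD11c (log2FC −2.22, edgeR FDR = 0.0861). The lists overlap, since Itgax stands in both and C1qa and C1qb stand among macrophage and complement genes.

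Complement genes did not all move. Of 15, 12 were lower at p under 0.05, and C1qb, a recognition chain that macrophages make, had medians of 13.6 and 6.74 CPM (log2FC −1.37, SE 0.27, edgeR FDR = 0.0543). C3, which stood at 155 to 1067 CPM over the 12 libraries, had a log2FC of 0.04 (SE 0.28, edgeR FDR = 0.993). Genes of cell division were lower in 14 of 22 cases, in 8 without mouse 65 of WT + AAV-GFP and in 5 when the 2 virus groups were fitted without genotype. Mki67, a marker of dividing cells, stood at 2.17, 10.1 and 4.97 CPM in WT + AAV-GFP and 0.714, 1.75 and 1.13 CPM in WT + AAV-PRDM16, but at 11.6, 6.85 and 9.63 CPM in KO + AAV-GFP and 7.18, 5.86 and 8.04 CPM in KO + AAV-PRDM16. The AAV-PRDM16 libraries lay below the AAV-GFP libraries in WT and overlapped them in KO (log2FC −2.27 and −0.42, edgeR interaction FDR = 0.9998).

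The other genes at an FDR of 0.05 were of low abundance. Dnase1l3, a secreted nuclease of dendritic cells and macrophages that clears DNA, lay between 0.484 and 2.67 CPM with AAV-GFP (median 1.21). With AAV-PRDM16 it lay between 0.105 and 0.317 CPM (median 0.148), a log2FC of −3.13 (SE 0.45, edgeR FDR = 0.0453). Ifi208, of the interferon-inducible p200 family, held 198 counts over the AAV-GFP libraries and 0 over the AAV-PRDM16 libraries, which is at least 50.8-fold lower at a floor of 3 counts over the group (edgeR FDR = 0.0453). Its family members share sequence, which makes its counts uncertain, and untreated BAT ranged from 0 to 0.454 CPM. The other 3 were the immunoglobulin segments Igkv1-110, Ighv1-22 and Ighv10-3. Mcemp1, a mast cell protein, was at 0 in all 6 AAV-PRDM16 libraries and at least 43.1-fold lower by the same floor (edgeR FDR = 0.0527). A list of neutrophil and mast cell genes did not move with it. Of its 6 tested members 1 was lower and 0 higher at p under 0.05, 4 had a log2FC above 0, and the median was 0.43. Both Ifi208 and Mcemp1 passed the count filter through AAV-GFP libraries alone.

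**Figure D4:**
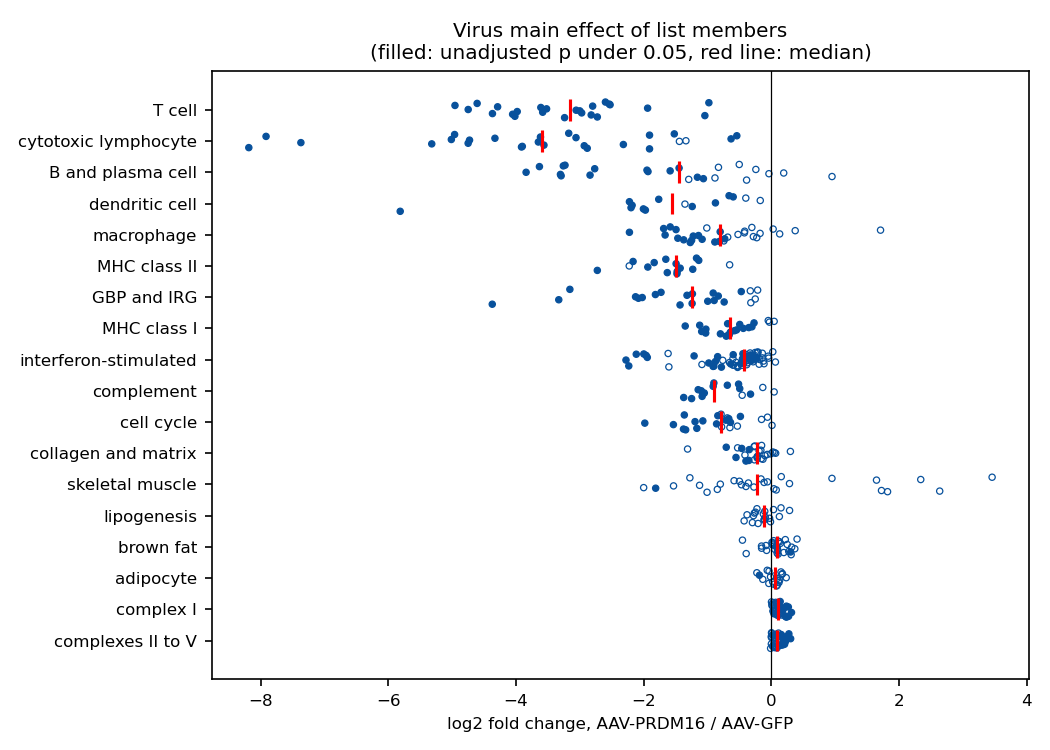
Each point is a gene of the list named on the vertical axis, placed by its log2FC of AAV-PRDM16 relative to AAV-GFP (horizontal axis), filled where the unadjusted p was under 0.05, and the red bar is the median of the list. The T cell median lies at −3.15, MHC class II at −1.49 and GBP and IRG at −1.24, and complex I at 0.10.

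Genes of thermogenesis and brown fat identity gave few calls. Of 30 brown fat genes, 0 were lower and 1 higher at p under 0.05 in edgeR (7.02% and 2.07% of all genes). The 1 higher gene is near the share of all genes and so says nothing particular about this list. Other settings gave 0 and 1 (DESeq2), 1 and 3 (limma-voom), 0 and 6 (GC and length offsets), and 0 and 5 (without WT + AAV-GFP mouse 65). The median log2FC was 0.10. Ucp1 lay between 1184 and 2658 CPM with AAV-GFP (median 1762) and between 1373 and 3531 CPM with AAV-PRDM16 (median 2419), and the groups overlapped (log2FC 0.31, SE 0.22, edgeR FDR = 0.811). Leaving out 1 library moved this log2FC between 0.163 (KO + AAV-PRDM16 mouse 76) and 0.540 (WT + AAV-GFP mouse 65). In WT the log2FC was 0.70 and in KO −0.08, with an unadjusted interaction p of 0.10. Cidea, a lipid droplet protein of brown adipocytes, had a log2FC of 0.11 (SE 0.08), and Dio2, which activates thyroid hormone, of −0.39 (SE 0.63). Of 19 genes for PRDM16, its paralog Mecom and their partners, only Prdm16 passed p under 0.05, and Mecom had medians of 12.6 and 12.3 CPM (log2FC −0.05, SE 0.11). Adrb3, the main beta-adrenergic receptor of mouse fat, had a log2FC of 0.10 (SE 0.12), Pparg of 0.11 (SE 0.13), Srebf1, a driver of lipid synthesis, of −0.03 (SE 0.12), and Lipe, hormone-sensitive lipase, of −0.04 (SE 0.07).

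Genes of the respiratory chain leaned the other way by small amounts. Of 38 nuclear genes of complex I, 9 were higher at p under 0.05 and 0 lower (2.07% and 7.02% of all genes), and the median log2FC was 0.10. The virus groups overlapped in the mean level of the list, at 6.26 to 6.68 log2 CPM with AAV-GFP and 6.33 to 6.83 with AAV-PRDM16. For 0 of the 38 did the 6 and 6 libraries lie apart. In each genotype 31 of the 38 were higher, against 4861 of all 18899 genes. Of 43 genes of complexes II to V, 10 were higher and 0 lower (median 0.09), and of 78 mitochondrial ribosome genes, 6 were higher (median 0.10). Ndufa4 lay between 211 and 296.6 CPM with AAV-GFP (median 238) and between 238 and 335 CPM with AAV-PRDM16 (median 280), with a log2FC of 0.21 (SE 0.08, edgeR FDR = 0.364). Atp5b had a log2FC of 0.06 (SE 0.08). Leaving out 1 library brought the complex I count to 5 (WT + AAV-PRDM16 mouse 80) or 6 (WT + AAV-GFP mouse 56, or KO + AAV-PRDM16 mouse 76). For complexes II to V it came to 6 (WT + AAV-GFP mouse 56, WT + AAV-PRDM16 mouse 80, or KO + AAV-GFP mouse 64). The mitochondrial ribosome count came to 16 (KO + AAV-GFP mouse 57), 11 (WT + AAV-GFP mouse 65), 10 (KO + AAV-PRDM16 mouse 59) or 4 (WT + AAV-GFP mouse 56, or KO + AAV-PRDM16 mouse 65). When each library's trend with GC content and transcript length was removed, 22 complex I genes were higher, but so were 2116 of all genes (1026 lower), which moved the share of higher genes among those at p under 0.05 from 22.8% to 67.3% and the median log2FC of all genes from −0.0067 to 0.107.

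Skeletal muscle genes gave 1 lower and 0 higher gene of 28 at p under 0.05, and 2 libraries set their values. Acta1 stood at 0.0717, 0.122 and 0.358 CPM in WT + AAV-GFP and 13.1, 0.0718 and 0.458 CPM in KO + AAV-GFP, against 0.187, 3.27 and 0.154 CPM in WT + AAV-PRDM16 and 0.307, 0.176 and 0 CPM in KO + AAV-PRDM16. The high values were those of mouse 57 of KO + AAV-GFP and mouse 64 of WT + AAV-PRDM16, and the log2FC of −1.01 (SE 1.14, edgeR FDR = 0.931) became 1.02 without mouse 57. Myh1, a fast myosin, had counts mainly in the same mice, at 6.30 and 5.71 CPM. The list of 28 muscle genes had a median log2FC of 1.62 in WT and −2.42 in KO. Untreated BAT held far more muscle RNA, with Acta1 at 3.12 to 493 CPM in WT and 1.01 to 1291 CPM in KO.

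Few genes were higher in every AAV-PRDM16 library than in every AAV-GFP library, 14 of the 18899 tested (0.0741%). Whether that share exceeds what chance alone gives was not tested, so these genes are described only. The 11 that did not overlap between the viruses and carry an established name were Prdm16, Cep290, Olfml2a, Tmem107, Ranbp1, Rcan3, Kat5, Erbb4, Ccser1, Lncppara and Mfsd14b. Cep290, a protein of the ciliary transition zone, lay between 5.86 and 9.97 CPM with AAV-GFP (median 8.51) and between 10.0 and 13.1 CPM with AAV-PRDM16 (median 11.2; log2FC 0.47, SE 0.12, edgeR FDR = 0.0991). Tmem107, of the same ciliary structure, had medians of 0.456 and 0.902 CPM (log2FC 0.90, SE 0.25, edgeR FDR = 0.135). Erbb4, a neuregulin receptor, had a log2FC of 0.29 (SE 0.10, edgeR FDR = 0.314), and that of Mfsd14b, the smallest of the 11, was 0.10.

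The lower genes repeated between genotypes more than the higher ones. WT and KO mice share no library, so each genotype was also fitted alone, over 17089 genes tested in both. In WT, 951 genes were lower (5.56%) and 475 higher (2.78%) at p under 0.05, and in KO, 685 were lower (4.01%) and 162 higher (0.948%). Of the 951 lower in WT, 749 were lower in KO (78.8%), 344 of them at p under 0.05, and of the 685 lower in KO, 604 were lower in WT (88.2%). Of the 475 higher in WT, 265 were higher in KO (55.8%), 8 of them at p under 0.05, and of the 162 higher in KO, 92 were higher in WT (56.8%). Of all genes, 51.3% were lower in WT and 49.99% in KO. The log2FC of the separate fits had a Pearson r of 0.484 and a Spearman rho of 0.188 across genes, which are not independent replicates.

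Within a genotype no gene passed the adjusted threshold, and the genotypes were not shown to differ in their response. In the 4-group model 0 genes were at an FDR of 0.05 in WT (396 higher and 981 lower at an unadjusted p under 0.05) and 0 in KO (247 and 964), where DESeq2 called 152 and 266 genes and limma-voom 1 and 0. The interaction had 0 genes at an FDR of 0.05 and 603 at an unadjusted p under 0.05 (3.19%), against 1 gene by DESeq2 and 0 by limma-voom at that FDR. For scale, the main effect of genotype gave 412 genes at an FDR of 0.05 in the same libraries.

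**Figure D5:**
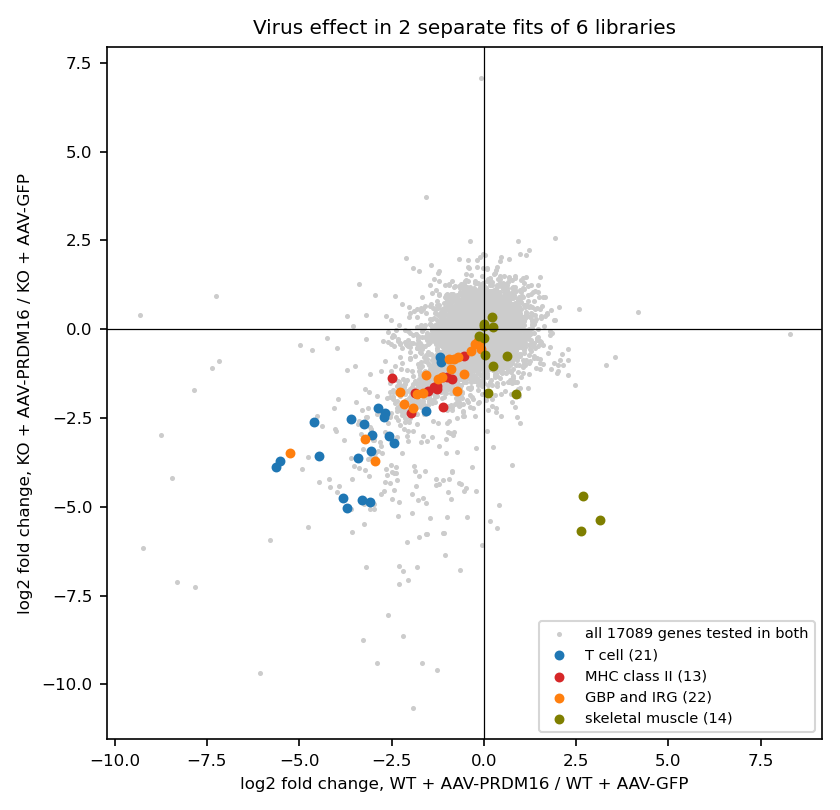
The log2FC of AAV-PRDM16 relative to AAV-GFP in WT (horizontal axis) is plotted against that in KO (vertical axis), each from its own fit, for 17089 genes in grey and 4 lists in colour. T cell, MHC class II and GBP and IRG genes lie at the lower left, lower in both genotypes, and muscle genes lie mostly to the lower right, higher in WT and lower in KO.

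The level of T cell RNA, given as the mean log2 CPM of the 24 markers, was −2.23, 0.88 and 0.08 in WT + AAV-GFP and −0.37, −0.67 and 1.38 in KO + AAV-GFP. It was −3.12, −3.19 and −2.85 in WT + AAV-PRDM16 and −3.39, −2.76 and −2.49 in KO + AAV-PRDM16. Untreated mice lay at −3.58 to −1.50 in WT and −2.64 to −0.77 in KO, so that 5 of 6 AAV-GFP mice stood above every untreated mouse, while all 6 AAV-PRDM16 mice lay within the range of untreated WT. The GBP and IRG list had the same order, from 2.36 to 4.32 with AAV-GFP and from 1.65 to 2.34 with AAV-PRDM16, beside 1.74 to 2.42 in untreated WT and 1.21 to 2.71 in untreated KO. MHC class II levels ran from 0.20 to 3.21 with AAV-GFP and from 0.03 to 0.91 with AAV-PRDM16. Untreated WT mice (0.13 to 2.54) overlapped both, and untreated KO mice (1.06 to 2.82) lay above every AAV-PRDM16 mouse. The tables of the 2 cohorts were scaled separately, and these levels were set side by side without a test. Mouse 80, with the least Prdm16 among the AAV-PRDM16 mice, had a T cell level of −2.85. That was the highest of WT + AAV-PRDM16 and inside the range of all 6 AAV-PRDM16 mice, and a link to the Prdm16 level was not tested.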

How the data were processed

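BAT RNA was extracted with TRIzol and made into mRNA libraries with the SureSelect XT HS2 kit, 1 library per mouse. The authors deposited whole-number counts per Ensembl gene, without normalization. The submitters' processing notes name bcl2fastq 2.20, Trimmomatic 0.36, HISAT2 and GRCm38.p6, while the counting tool and the handling of strand and molecular identifiers are not given in the sources used here. Of 55487 identifiers 55227 had a symbol, and 18899 passed filterByExpr of edgeR 4.0.16 (R 4.3.3). Counts were TMM-scaled and fitted by quasi-likelihood in 4 groups of 3 mice, two-sided, with Benjamini-Hochberg adjustment. Libraries of 1 group differed by a median chi-square of 5.26 or more per gene, so none was counted as a duplicate. List levels are means of log2 CPM with a prior count of 2. Scripts were tested on simulated counts.

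The members and gene lists were chosen with earlier results of these data known. Named genes were Prdm16 and Cpeb2, genes the study names, up to 6 most abundant members of each list, and up to 12 higher and 12 lower genes by fold change at an FDR of 0.05, filled by p among those without overlap. Promoters came from RefSeq (GRCm38.p6). Alternatives were DESeq2 1.42.0, RLE scaling, other filters and FDRs, limma-voom, a replicate block, GC and length offsets, 1 surrogate variable, 2 groups without genotype, prior counts of 0.5 and 5, each library left out, and 2 pairs of libraries left out, chosen after seeing the data.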

Additional observations from a re-analysis of the deposited data

Results flagged for a closer look

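Of 118 sets of 6 values tested for a library far from the others (a list level or a named gene in 1 virus group, by Dixon's ratio of the gap to the range), 10 passed the critical value, and chance passes about 1 in 20. Mouse 57 of KO + AAV-GFP was the highest AAV-GFP library for the skeletal muscle list (ratio 0.887, 1.85 against −1.96 mean log2 CPM for the next), Acta1 (0.666) and Myh1 (0.64), and the lowest for Ccser1 (0.684). Mouse 64 of WT + AAV-PRDM16 was the highest AAV-PRDM16 library for Myh1 (0.629) and Rcan3 (0.8), and the lowest for the GBP and IRG list (0.632, 1.65 against 2.09). Mouse 76 of KO + AAV-PRDM16 was the highest for Erbb4 (0.754) and held all 5 H2-M2 counts of its virus group (ratio 1). Mouse 69 of KO + AAV-GFP had the lowest level of lipid synthesis genes among the AAV-GFP libraries (0.662, 8.02 against 9.30).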

How the results depend on the processing

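The counts at an FDR of 0.05 depended on the setting, and the cause was not tested. Against 7 lower and 0 higher genes in the main effect, an FDR of 0.1 gave 345 and 9, an FDR of 0.01 gave 0 lower, at least 2-fold with an FDR of 0.5 gave 802 and 47 (275 in WT, 406 in KO), DESeq2 561 and 41 (152 in WT, 266 in KO, interaction 1), RLE 74 and 2, no filter 143 and 1, and a minimum of 0.5 CPM in 1 library 0 lower. One surrogate variable gave 235 and 5, 2 groups without genotype 76 and 2 (249 higher at an unadjusted p under 0.05), GC and length offsets 122 and 15 (2116 higher at an unadjusted p under 0.05), and limma-voom 802 higher at an unadjusted p under 0.05 and 1 gene in WT at an FDR of 0.05. Without mice 57 of KO + AAV-GFP and 64 of WT + AAV-PRDM16 there were 15 lower (696 higher at an unadjusted p under 0.05). Without mice 56 of WT + AAV-GFP and 69 of KO + AAV-GFP there were 261 and 6 (190 in WT, 5 in KO, interaction 2). The genotype count of 412 became 1584 (DESeq2), 250 (no filter), 1269 (limma-voom), 260 (GC and length offsets) and 273 (without mice 56 and 69).

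With the replicate number as a block, 2 genes were lower at an FDR of 0.05, and with GC and length offsets in the same fit 76 lower and 7 higher (2020 higher at an unadjusted p under 0.05, genotype 221). The numbers do not pair the mice: over 18 same-number pairs the deviations had a median correlation of 0.010 (−0.091 to 0.154), and 3 of 12 libraries correlated best with their own number.

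Leaving out 1 library gave 0 to 349 lower and 0 to 7 higher genes at an FDR of 0.05, 1074 to 1712 lower and 281 to 722 higher at an unadjusted p under 0.05, 0 to 2 in WT, 0 to 2 in KO, 0 to 1 for the interaction and 89 to 590 for genotype. Over all these settings the T cell list had 23 to 24 lower genes of 24, GBP and IRG 18 to 21 of 22, MHC class II 11 to 14 of 15 and MHC class I 15 to 18 of 21. Directions turned only for uncalled genes, whose log2FC without 1 library ranged from −2.42 to 1.02 for Acta1, −2.69 to 5.17 for Myh1, −0.104 to 0.018 for Mecom, −0.106 to 0.069 for Srebf1, −1.002 to 0.597 for Dio2 and −0.037 to 0.188 for Pparg. Limma-voom gave 0.604 for Acta1, 2 groups without genotype −0.0965 for Myh1, and leaving out mice 57 and 64 −0.230 for Myh1. GC and length offsets, without and with the block, gave 0.0180 and 0.0177 for Cpeb2, 0.0661 and 0.0700 for Lipe, 0.0678 and 0.0642 for Mecom, and 0.0427 and 0.0472 for Srebf1.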

Other observations

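Lists of other cell types and functions are read against the 7.02% of all genes lower and 2.07% higher. Of 18 endothelial genes 0 were lower and 0 higher at an unadjusted p under 0.05 in edgeR, and their median log2FC was −0.02. Of 27 collagen and matrix genes 6 were lower and 0 higher, with a median log2FC of −0.22, and of 24 immediate early genes, which respond within minutes to signals and to handling, 5 were lower and 0 higher, with a median of −0.32 and a lower count of 2 to 10 over all settings. Leaving out 1 library brought the collagen count to 1 (WT + AAV-PRDM16 mouse 63, KO + AAV-GFP mouse 69, or KO + AAV-PRDM16 mouse 65), to 2 (WT + AAV-GFP mouse 89, or KO + AAV-PRDM16 mouse 76) or to 10 (WT + AAV-GFP mouse 65), limma-voom brought it to 2, and it was 0 with GC and length offsets and 0 with 2 groups without genotype. Of 80 cytoplasmic ribosome genes 0 were lower and 1 higher, and of 20 general adipocyte genes 1 was lower and 0 higher, with a median of 0.06.

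Summed over the B and plasma cell list, the AAV-GFP libraries held 45.7 to 916 CPM, against 13.1 to 102 CPM with AAV-PRDM16. The lipid synthesis list was low in mouse 69 of KO + AAV-GFP (8.02) and in mouse 76 of KO + AAV-PRDM16 (8.44 mean log2 CPM), and lay between 9.16 and 9.94 in the other 10 libraries.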
